A study of Mus musculus with 6 samples.

Results

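JAK kinases, STAT factors and SOCS inhibitors were examined in mouse microglia that had shared a culture with neutrophils from injured spinal cord. The set held 9 genes, namely the kinases Jak1 and Jak2, the transcription factors Stat2, Stat3, Stat5a and Stat6, and the feedback inhibitors Socs1, Socs3 and Cish. They were taken by symbol from a table of 55335 mouse genes, and each symbol matched 1 identifier. The microglia were primary cells from neonatal C57BL/6 brains, all WT, detached from glial flasks on day 14. The neutrophils came from spinal cord lesions on day 3 after spinal cord injury (SCI), from Cd177 WT or Cd177 KO mice, and stayed with the microglia for 24 h in direct contact. Cd177 encodes a neutrophil surface protein, so the groups are named here for the neutrophils (WT or KO), while both shared the injury, the microglial genotype and the sort. After the culture the microglia were sorted as Ly6G-, and 3 libraries per group were sequenced. It is not stated whether the libraries of a group came from separate cultures or animals, or how many mice were pooled, so p-values measure only the spread between these libraries.

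Cytokine receptors without kinase activity of their own hold a JAK kinase at their inner end. When a cytokine joins the receptor chains, the JAKs phosphorylate each other, the receptor and a STAT, and the STAT pair moves to the nucleus and binds DNA. SOCS proteins and Cish are made in response to STATs and shut the receptor off, so their transcripts are commonly read as a trace of recent cytokine signalling in macrophages and microglia.

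Expression was given as FPKM, the fragments of a transcript divided by its length in kilobases and by each 1000000 fragments mapped, so levels can be set side by side between genes. A value with ± is a mean and SD of the 3 libraries of a group, and an adjusted p is that of limma. The depth, in units of 1000000 fragments, was estimated at 15.6 to 19.2 per library. Libraries of the same group correlated at r = 0.988 to 0.989 across genes and libraries of different groups at 0.956 to 0.959 (genes are not independent replicates). Mitochondrial transcripts took 11.1% to 11.3% of the summed FPKM in the WT libraries and 14.3% to 14.6% in the KO libraries. After rescaling to a common sum without these transcripts, the log2 changes given below for Socs3, Jak2 and Stat3 were -1.73, -0.94 and -0.38, and 2107 genes were lower and 2794 higher, against 2141 and 2789 as deposited. Cd177 itself was near the limit of detection in the sorted microglia, with 0.477, 0.113 and 0.151 FPKM in the WT group and 0.109, 0.0217 and 0.0845 FPKM in the KO group. It gives no firm check of the neutrophil genotype. Of 14 microglial markers 11 had a mean under 1 FPKM, and Sall1, Fcrls and C1qa were listed at 0 in all libraries, whereas the 3 others were measured in both groups. Among the low ones, P2ry12 had means of 0.0339 FPKM (WT) and 0.0905 FPKM (KO), and Tmem119 of 0.298 and 0.712 FPKM. The cells are called microglia after the labels and the study, and these markers do not establish that identity. The 14 markers summed to 29.8 to 32.4 FPKM in the WT and 49.3 to 50.1 FPKM in the KO libraries. Most of this difference was Trem2, with 12.0 ± 1.05 and 27.96 ± 0.364 FPKM. Csf1r had 15.5 ± 0.294 and 19.4 ± 0.820 FPKM, and Cx3cr1 was lower, with 2.74 ± 0.296 and 1.14 ± 0.2505 FPKM (WT then KO). All 12 markers shared by macrophages and microglia passed the filter on low values, led by Ctsd. The 16 neutrophil markers summed to 9.28 to 9.53 FPKM in the WT libraries and 1.84 to 2.64 FPKM in the KO libraries. Ly6g, Mpo, Elane, Ltf, S100a9 and Retnlg were at 0 in all 6, and the marker that carried most of the sum, Mmp9, had 7.13 ± 0.0688 and 0.987 ± 0.190 FPKM. Mmp9 is also made by macrophages, and its part in the results below was not tested. Of 15 astrocyte and oligodendrocyte markers 13 had a mean under 1 FPKM, and Aldoc and Cnp were higher in the KO group.

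Among the members, transcripts of the feedback inhibitors Socs3 and Cish and of the kinase Jak2 were far lower in microglia that had met KO neutrophils, and Stat3 was moderately lower. Stat6 and Stat5a were higher. Jak1 was slightly lower, Stat2 did not pass the test, and Socs1 was barely detected in any library. Of the 9 members 7 averaged 1 FPKM or more across all 6 libraries and were tested, by limma on log2(FPKM + 1) over all 11395 genes that passed the same minimum. Of these 7, 4 were lower and 2 higher with an adjusted p under 0.05, which is 85.7% of those tested. The share over all genes tested was 43.3% (18.8% lower and 24.5% higher), so that a call alone was common in this comparison. Of the same 7, 6 had KO libraries that did not overlap with the WT libraries (4 below and 2 above), against 55.8% of all genes tested (24.6% below and 31.3% above). Of all calls 43.4% were lower in the KO group, and 55% after each library was rescaled to a common sum. A log2 change under -1 with a call was rare, at 2.02% of the genes tested, and Socs3 was among these. Jak2 lay just outside this cut at -0.94, but inside it with a pseudocount of 0.1 (-1.07) or on a common sum (-1.08). In bulk RNA, fewer expressing cells and less RNA per cell cannot be told apart.

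**Figure D1:**
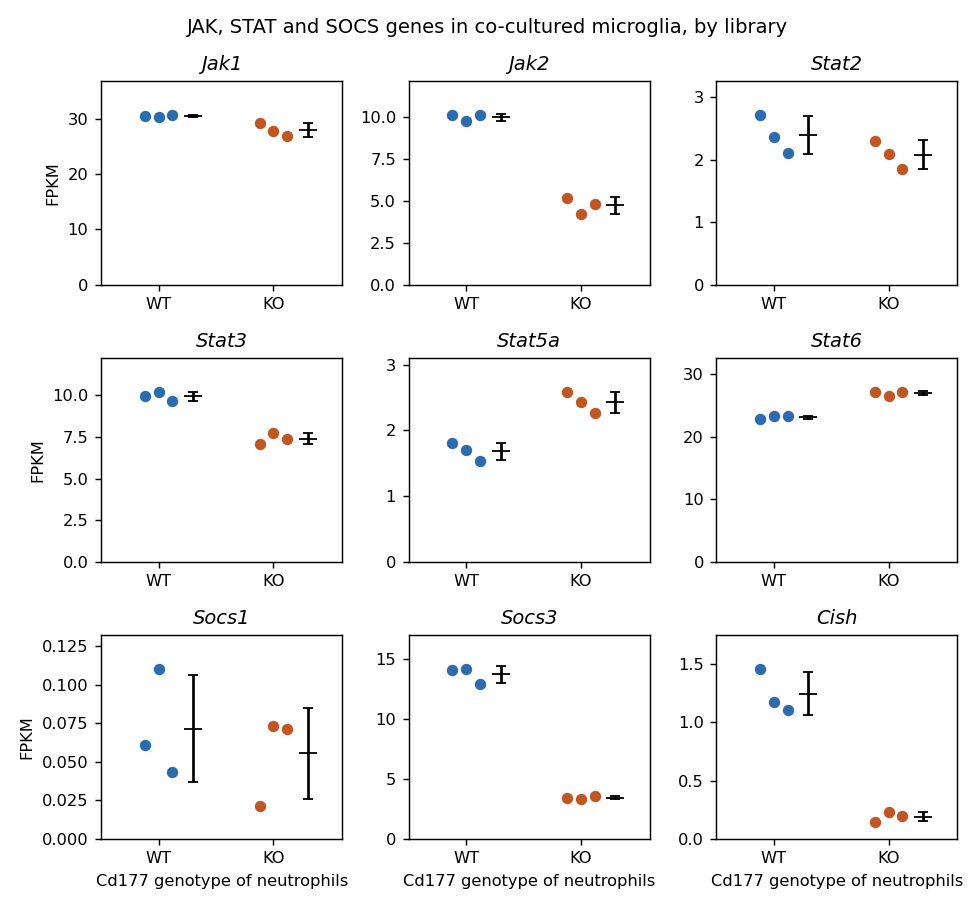
FPKM of the 9 members in each library, with WT neutrophils in blue and KO neutrophils in orange; the black bar beside each group is the mean and the whiskers are 1 SD (n = 3). The KO points of Socs3 (3.31 to 3.60 FPKM) and Jak2 (4.22 to 5.19 FPKM) sit far below the WT points, those of Stat5a and Stat6 sit above them, and those of Stat2 and Socs1 overlap.

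The kinases differed from each other in how far they moved. Jak2, which serves the receptors of GM-CSF, IL-3, erythropoietin and, with Jak1, interferon gamma, lies on chromosome 19 (29251828 to 29313080, GRCm38, GENCODE M21). It had 10.1, 9.77 and 10.1 FPKM in the WT libraries and 5.19, 4.22 and 4.81 FPKM in the KO libraries. Every KO library lay below every WT library, and the KO mean was 47.4% of the WT mean. On the log2 scale the change was -0.94 (95% interval -1.11 to -0.78, limma adjusted p = 0.000108). On this scale of log2(FPKM + 1), which understates the change of low genes, it was the 266th lowest change of the 11395 genes tested.

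Jak1, the kinase used by the interferon and gp130 receptors and by those with the common gamma chain, lies on chromosome 4 (101152367 to 101265282). It was the most abundant JAK, with 30.6, 30.4 and 30.7 FPKM in the WT libraries and 29.3, 27.9 and 26.9 FPKM in the KO libraries. The groups did not overlap, but the KO mean was still 91.7% of the WT mean. The log2 change of -0.12 (95% interval -0.21 to -0.04) had a limma adjusted p of 0.0342. This call was lost without WT replicate 1 (adjusted p = 0.0839), WT replicate 2 (0.0723), WT replicate 3 (0.0857), KO replicate 2 (0.0888) or KO replicate 3 (0.0846). It was also lost with no filter on low values (limma adjusted p = 0.0609) and with no variance trend (0.0570).

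The STAT factors moved in both directions. Stat3, the factor of IL-6, IL-10 and G-CSF receptors (chromosome 11, 100885098 to 100939540), had 9.95, 10.2 and 9.66 FPKM in the WT libraries and 7.05, 7.74 and 7.40 FPKM in the KO libraries. The groups did not overlap, and the KO mean was 74.4% of the WT mean, a log2 change of -0.38 (95% interval -0.49 to -0.27, limma adjusted p = 0.000963). Stat6, the factor of IL-4 and IL-13 (chromosome 10, 127642986 to 127660957), had 22.8, 23.2 and 23.2 FPKM and 27.1, 26.5 and 27.1 FPKM. It was higher in every KO library than in any WT library, by a log2 change of 0.21 (95% interval 0.15 to 0.28, limma adjusted p = 0.000989).

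Stat5a, 1 of a pair of close homologues that serve GM-CSF, IL-3 and IL-2 type receptors (chromosome 11, 100859351 to 100885169), was a low transcript with 1.80, 1.70 and 1.54 FPKM in the WT and 2.58, 2.43 and 2.27 FPKM in the KO libraries. Its groups did not overlap, and the log2 change was 0.35 (95% interval 0.19 to 0.52, limma adjusted p = 0.00725). Stat5b, the other of the pair, lies 8.626 kb away on the same chromosome and had 10.3 ± 0.127 and 10.5 ± 0.217 FPKM. Reads that fit both homologues could have been split between them, so the value of each is uncertain to that extent. The last exons of Stat5a and Stat3 also share 72 bases on opposite strands. Whether strand was used in the counting is not stated, and those bases cannot then be told apart.

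Stat2, which joins Irf9 in the complex that type I interferon activates (chromosome 10, 128270559 to 128292849), had 2.72, 2.36 and 2.11 FPKM in the WT libraries. The KO libraries had 2.30, 2.095 and 1.85 FPKM and overlapped with them. The log2 change was -0.14 with a 95% interval of -0.36 to 0.09 (limma adjusted p = 0.272), an interval that holds both no change and a fall of the size seen for Jak1.

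Socs3, the inhibitor that binds gp130 and blocks JAK activity there, showed the largest change of the tested members (chromosome 11, 117966079 to 117970047). It had 14.1, 14.2 and 12.9 FPKM in the WT libraries and 3.41, 3.31 and 3.60 FPKM in the KO libraries. All KO libraries were thus under the lowest WT library by a wide margin, and the KO mean was 25.1% of the WT mean. The log2 change was -1.73 (95% interval -1.85 to -1.60, limma adjusted p = 2.70e-06), on the same scale the 78th lowest of the 11395 genes tested.

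Cish, a SOCS family inhibitor induced through STAT5 (chromosome 9, 107296026 to 107302784), was lower too, from a low level. It had 1.46, 1.177 and 1.10 FPKM in the WT libraries and 0.147, 0.229 and 0.191 FPKM in the KO libraries, with no overlap. Its mean over the 6 libraries was under 1 FPKM, so it was not among the genes tested. The KO values lay under the floor of 3 fragments, 0.459 FPKM for the shortest coding transcript of the gene, so that Cish was at least 2.71-fold lower in the KO group (floors cover counting error only). With no filter on low values its log2 change was -0.91 (limma adjusted p = 0.000992). Its exons share bases with 2 antisense or pseudogene transcripts on the opposite strand, whose reads cannot be told apart without strand. Socs1, the inhibitor of interferon receptors (chromosome 16, 10782240 to 10785536), had 0.0609, 0.110 and 0.0431 FPKM in the WT and 0.0215, 0.0732 and 0.0715 FPKM in the KO libraries. These values lay around its floor of 0.0692 FPKM (WT) and 0.0677 FPKM (KO) and overlapped, and a difference was not detectable at this depth.

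Taken gene by gene, 3 libraries against 3 allow no two-sided p under 0.1 in an exact permutation test. This value of 0.1 was reached by Jak1, Jak2, Stat3, Stat5a, Stat6, Socs3 and Cish, while Stat2 had an exact p of 0.2 and Socs1 of 0.6.

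Because STATs bind DNA near the genes they induce, the 250 bases before the start of each member were searched on both strands. The sequences are those of RefSeq (GRCm38.p6), which held 10 starts for the 9 members. The letters searched were TTCNNNGAA, the common STAT site, TTCNNNNGAA, the wider spacing that STAT6 prefers, and GAAANNGAAA, the core of the interferon-stimulated response element bound by the complex of Stat2 and Irf9. The 3 windows that held a match are shown 5′ to 3′ on the strand of the gene, with the matches in capitals.
Socs3 (chr11:117969367-117969616, minus strand): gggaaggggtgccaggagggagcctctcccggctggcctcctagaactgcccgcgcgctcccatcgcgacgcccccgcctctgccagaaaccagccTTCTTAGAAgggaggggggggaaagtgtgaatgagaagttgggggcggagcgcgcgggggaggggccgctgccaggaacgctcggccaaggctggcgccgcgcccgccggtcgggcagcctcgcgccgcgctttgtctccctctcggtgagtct
Socs1 (chr16:10785537-10785786, minus strand): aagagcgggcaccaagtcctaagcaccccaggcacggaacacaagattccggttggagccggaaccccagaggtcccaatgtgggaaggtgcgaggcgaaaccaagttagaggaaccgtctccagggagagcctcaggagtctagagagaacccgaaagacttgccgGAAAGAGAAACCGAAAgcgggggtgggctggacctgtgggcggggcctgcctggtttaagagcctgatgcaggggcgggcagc
Stat2 (chr10:128270248-128270497, plus strand): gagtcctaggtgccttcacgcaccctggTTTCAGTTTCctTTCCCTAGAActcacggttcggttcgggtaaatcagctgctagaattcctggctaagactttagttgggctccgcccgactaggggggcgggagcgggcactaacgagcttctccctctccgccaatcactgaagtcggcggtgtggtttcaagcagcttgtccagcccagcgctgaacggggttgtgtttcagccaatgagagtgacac
Socs3 held TTCTTAGAA from base -154 to -146 before its start. Socs1 held a pair of overlapping matches, GAAAGAGAAA from -83 to -74 and GAAACCGAAA from -77 to -68. Stat2 held TTTCAGTTTC, the response element core read on the opposite strand, from -222 to -213, and TTCCCTAGAA from -210 to -201. Thus 1 of the 10 windows held TTCNNNGAA, against 7.02% of 32851 mouse windows of the same length, 1 held TTCNNNNGAA (5.85% of all) and 2 held GAAANNGAAA (2.98% of all). The windows of Stat3, Stat5a, Stat6, Jak1, Jak2 and Cish held none of these letters. The Cish window lay inside an exon of a coding transcript in GENCODE M21. A match is a description of the sequence and says nothing on binding. Of the 3 genes shown, Socs3 fell and Stat2 overlapped between the groups, as did Socs1, which lay around its floor. Among the members without a match, Jak1, Jak2, Stat3 and Cish were lower and Stat5a and Stat6 higher. A link between these letters and the changes was not tested.

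The members were next set among the other genes of their families, Jak3, Tyk2, Stat4, Stat5b, Socs2, Socs4, Socs5, Socs6 and Socs7. Of these 9, 7 were tested, 2 were lower and 0 higher with a limma adjusted p under 0.05 (the same 2 and no other had an unadjusted p under 0.05, and no other tool was run). This was 28.6% of those tested, against 43.3% of all genes tested. Jak3, the kinase of the common gamma chain, fell from 3.87 ± 0.178 to 2.63 ± 0.122 FPKM (log2 change -0.42, limma adjusted p = 0.00146). The exons of Jak3 share 404 bases with Insl3 on the same strand. Socs7 fell from 8.36 ± 0.679 to 6.39 ± 0.133 FPKM (log2 change -0.34, limma adjusted p = 0.00502).

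The remaining family genes did not pass. Tyk2 had 3.67 ± 0.0632 and 3.83 ± 0.199 FPKM (log2 change 0.05, 95% interval -0.08 to 0.17) and Socs4 had 13.9 ± 0.453 and 13.8 ± 0.419 FPKM (log2 change -0.01, interval -0.11 to 0.08). Stat5b had a log2 change of 0.02 (interval -0.06 to 0.10), whose sign flipped after rescaling to a common sum. Socs5 had 5.08 ± 0.234 and 4.63 ± 0.452 FPKM (log2 change -0.11, interval -0.29 to 0.06). Socs6 varied widely within both groups, from 1.96 to 3.90 FPKM in the WT and from 1.70 to 3.71 FPKM in the KO libraries, and its interval of -0.71 to 0.64 was the widest. Socs2, an inhibitor of growth hormone type signals, had 0.791, 0.950 and 1.08 FPKM in the WT and 0.645, 0.699 and 0.547 FPKM in the KO libraries. It did not overlap but had a mean under 1 FPKM and was not tested. Stat4 was listed at 0 in all 6 libraries.

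**Figure D2:**
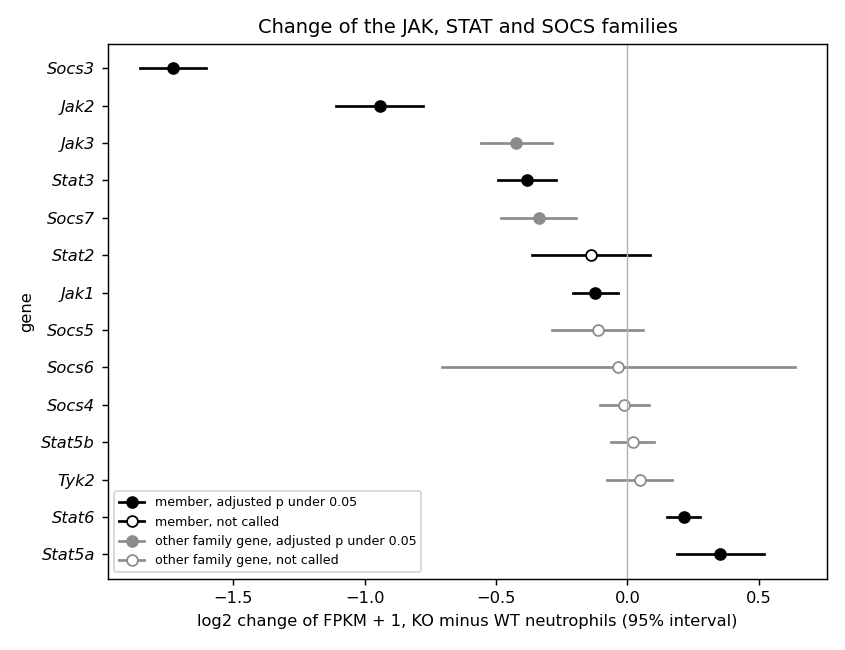
Log2 change of FPKM + 1 (KO minus WT neutrophils) of the tested JAK, STAT and SOCS genes, with limma 95% intervals as lines; members are black, other family genes grey, and filled points had an adjusted p under 0.05. Socs3 (-1.73) and Jak2 (-0.94) lie farthest to the left, Stat5a (0.35) and Stat6 (0.21) to the right, and the line of Socs6 is the widest.

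The order of levels within each family changed mainly through these genes. In the WT group the JAKs ranked Jak1, Jak2, Jak3 and Tyk2, with the libraries of Jak3 and Tyk2 overlapping. In the KO group Jak2 was closer to Tyk2 (4.74 ± 0.491 against 3.83 ± 0.199 FPKM) and Jak3 was the lowest. Jak2 held 20.8% ± 0.205 of the summed JAK level in the WT libraries and 12.1% ± 1.07 in the KO libraries. The summed level of the 4 JAKs was 47.5 to 48.5 FPKM and 38.04 to 40.7 FPKM.

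Among the STATs described here the order of levels was Stat6, Stat5b, Stat3, Stat2 and Stat5a in the WT group, where the libraries of Stat5b and Stat3 overlapped. In the KO group Stat3 lay below Stat5b in every library, and Stat5a and Stat2 overlapped.

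The SOCS family showed the clearest reordering. Socs3 stood level with Socs4 at the top in the WT group, at 29.6% ± 2.16 and 30.0% ± 0.571 of the family sum. In the KO group Socs3 fell to 10.7% ± 0.331, below Socs4, Socs7 and Socs5 and overlapping with Socs6. Cish ranked above Socs2 with WT neutrophils and below it with KO neutrophils, where Cish lay under its floor. Socs1 was last in both groups. In the KO group its order against Cish was not resolved, as the values lay under (Cish) or around (Socs1) the floor. The summed SOCS level was 46.4 ± 1.44 FPKM in the WT group, against 32.2 ± 1.185 FPKM in the KO group.

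**Figure D3:**
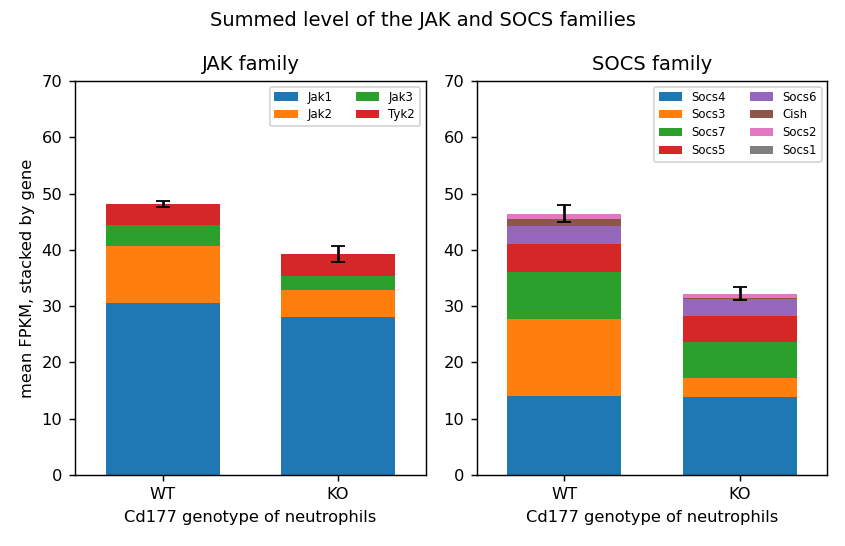
Mean FPKM of each gene, stacked within the JAK and SOCS families, for microglia with WT and KO neutrophils; whiskers are 1 SD of the summed level over 3 libraries. The SOCS stack drops from 46.4 to 32.2 FPKM mostly through the Socs3 segment, and the JAK stack from 48.1 to 39.2 FPKM mostly through the Jak2 segment.

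Ratios between genes of the same library do not depend on how libraries are scaled. The ratio of Jak2 to Jak1 was 0.332, 0.321 and 0.329 in the WT libraries and 0.177, 0.151 and 0.179 in the KO libraries. The ratio of Stat3 to Stat6 was 0.437, 0.439 and 0.416 against 0.260, 0.292 and 0.273. Both ratios were lower in every KO library. The ratio of Stat5a to Stat5b was instead higher in every KO library, 0.240, 0.233 and 0.220 against 0.172, 0.165 and 0.151. The ratio of Socs3 to Stat3 was 1.38 ± 0.0377 with WT and 0.466 ± 0.0337 with KO neutrophils, so Socs3 was lower by more than Stat3. The 8 ratios computed were chosen after the values were seen, and each gave p = 0.1 in the exact permutation test, which can go no lower.

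**Figure D4:**
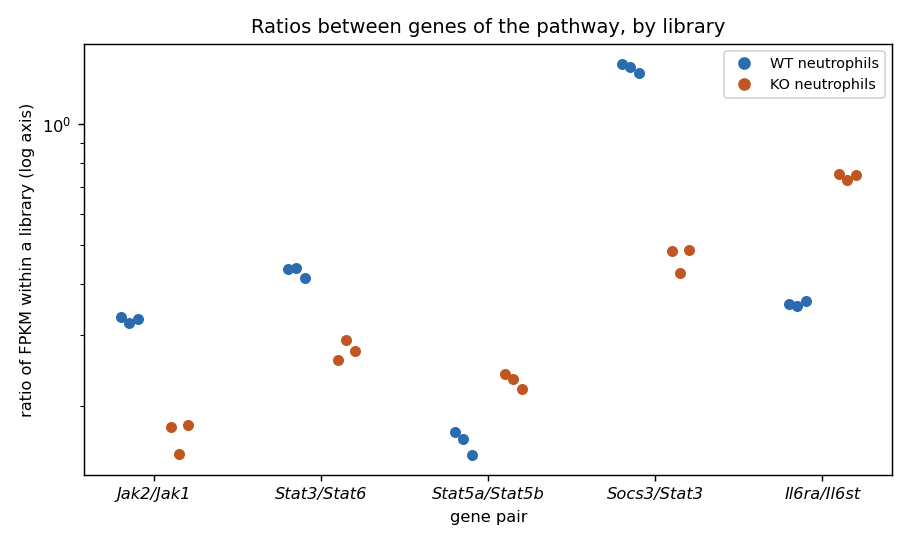
Ratio of the FPKM of 2 genes within each library, on a log axis, with WT neutrophils in blue and KO neutrophils in orange. For each of the 5 pairs the 3 KO points lie apart from the 3 WT points, lower for Jak2/Jak1, Stat3/Stat6 and Socs3/Stat3 and higher for Stat5a/Stat5b and Il6ra/Il6st.

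Upstream of the kinases, ligands of JAK-coupled receptors moved in both directions. Of 31 such ligands 10 were tested, and 6 were lower and 3 higher (over all genes tested 18.8% were lower and 24.5% higher). For 6 of these 10 (Csf3, Il6, Il23a, Lif, Il4 and Epo) 1 group had a mean under 1 FPKM, so they passed the filter through the other group and their direction was partly fixed by it. Of the other 4, Ebi3 and Osm were lower, Il15 was higher and Cntf was not called. Csf3 (G-CSF) had 122, 127 and 125 FPKM in the WT libraries and was at 0 in the KO libraries, at least 935-fold lower against the floor. Il6 had 17.98, 17.3 and 18.8 FPKM against 0.0423, 0.171 and 0.128 FPKM, under its floor of 0.290 FPKM and thus at least 62.3-fold lower. Ebi3, a subunit of IL-27 and IL-35, fell from 33.7 ± 1.31 to 8.53 ± 0.742 FPKM (log2 change -1.87, limma adjusted p = 4.68e-06). Osm (oncostatin M), which signals through gp130, fell from 38.7 ± 2.00 to 15.2 ± 0.766 FPKM (log2 change -1.29, limma adjusted p = 7.57e-06). Low transcripts went both ways, and those given next were named after their values were seen. Csf2 (GM-CSF) had 1.15, 1.69 and 2.17 FPKM in the WT libraries and was at 0 in all 3 KO libraries, at least 7.10-fold lower against the floor, but its mean was under 1 FPKM and it was not tested. Il12b, a subunit of IL-12 and IL-23, had 0.726, 0.761 and 0.614 FPKM against 0 in all 3 KO libraries and was not tested either. Lif fell from 1.77 ± 0.285 to 0.327 ± 0.0998 FPKM and Il23a from 1.82 ± 0.254 to 0.661 ± 0.126 FPKM (adjusted p = 0.000412 and 0.00131). The 3 ligands that were higher were low as well. Il15 had 1.28 ± 0.272 and 2.31 ± 0.409 FPKM, Il4 had 0.698 ± 0.140 and 1.35 ± 0.208 FPKM, and Epo was at 0 in the WT libraries and had 1.84, 5.75 and 5.11 FPKM in the KO libraries. The exons of Epo share 104 bases with Gnb2 on the same strand. Ifnb1, Ifng and Il10 (chosen after their values were seen) were at or near 0 in every library.

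The receptor chains moved in both directions. Of 37 chains 19 were tested, 8 lower and 5 higher (68.4% called, against 43.3% of all genes tested), with a median log2 change of -0.15 against 0.02 for all genes tested. Il6ra, the IL-6 binding chain, rose most, from 4.19, 3.90 and 4.00 FPKM to 9.36, 9.48 and 9.08 FPKM (log2 change 1.03, limma adjusted p = 9.16e-06). Its partner Il6st (gp130) had 11.3 ± 0.412 and 12.5 ± 0.457 FPKM, and the ratio of Il6ra to Il6st went from 0.358 ± 0.00569 to 0.743 ± 0.0138. Csf2rb2, a beta chain of the IL-3 receptor, rose from 15.7, 15.7 and 16.1 FPKM to 27.9, 28.7 and 27.6 FPKM (log2 change 0.78, limma adjusted p = 6.03e-06). Csf2rb, the beta chain shared with the GM-CSF receptor, is nearly identical to it, so that reads may have been split between both. It had 12.9 ± 0.814 and 21.8 ± 2.62 FPKM. Il7r fell from 18.9 ± 0.371 to 10.1 ± 0.191 FPKM and Il13ra1, a chain of the IL-13 receptor, from 22.5 ± 0.749 to 13.3 ± 0.213 FPKM (log2 change -0.84 and -0.71, limma adjusted p = 7.17e-06 and 1.93e-05). Among the interferon receptor chains Ifnar2 fell (17.0 ± 0.633 to 12.7 ± 0.516 FPKM, limma adjusted p = 0.000648), while Ifnar1, Ifngr1 and Ifngr2 were not called.

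Other inhibitors of the pathway changed less than Socs3. All 12 were tested, 5 were lower and 2 higher (58.3% called, against 43.3% of all genes tested), with a median log2 change of -0.08. Usp18, which blocks the type I interferon receptor and is itself an interferon target, fell from 13.5 ± 0.0995 to 6.15 ± 0.270 FPKM (log2 change -1.02, limma adjusted p = 7.78e-06). The phosphatases Ptpn2 and Ptpn6, which act on JAKs and STATs, had log2 changes of -0.31 and -0.30 (limma adjusted p = 0.00452 and 0.00161). Cbl, a ubiquitin ligase, had -0.25 (limma adjusted p = 0.00715). The phosphatase Ptpn1 and the STAT inhibitor Pias1 were the 2 that were higher, both by 0.24.

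Interferon-stimulated genes and textbook targets of the STATs were then counted, with each list compared only by its counts with the background of 18.8% lower and 24.5% higher. Some genes stand in several of the lists of this report, Socs3, Pim1, Osm, Usp18 and Il4ra among them. The counts of the lists are therefore not independent. Of 20 interferon-stimulated genes 15 were tested, 14 lower and 0 higher, with a median log2 change of -1.26. Irf7 fell from 15.7 ± 0.876 to 2.20 ± 0.111 FPKM, Isg15 from 25.3 ± 1.86 to 4.05 ± 0.613 FPKM and Rsad2 from 19.1 ± 0.829 to 4.78 ± 0.525 FPKM (log2 change -2.38, -2.38 and -1.80). Cxcl10 had 5.53, 6.62 and 5.52 FPKM against 0.575, 0.165 and 0.200 FPKM. For 3 of the 15 the KO or WT mean was under 1 FPKM, so they passed the filter through the other group. Irf1, an interferon-induced transcription factor, was the list's tested member that did not fall, with 4.13 ± 0.418 and 4.805 ± 0.0866 FPKM (log2 change 0.18, limma adjusted p = 0.0786, unadjusted p = 0.0385).

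Of 20 Stat3 targets 18 were tested, 15 lower and 2 higher (median log2 change -0.75). For 2 of the 18, Lcn2 among them, the KO mean was under 1 FPKM, so they passed the filter through the WT group. Besides Socs3 the largest falls were Lcn2, a siderophore-binding protein, Il1rn, the IL-1 receptor antagonist, and Tnfaip3, an inhibitor of NF-kB that NF-kB itself induces. Lcn2 had 109, 113 and 109 FPKM against 0.0479, 0.314 and 0.237 FPKM. Il1rn fell from 31.8 ± 0.336 to 4.23 ± 0.380 FPKM and Tnfaip3 from 7.79 ± 0.172 to 1.83 ± 0.145 FPKM (log2 change -2.65 and -1.64). Several genes of this list also answer to NF-kB or other factors, so the list does not separate Stat3 from them. Of 13 Stat5 targets 8 were tested, 3 lower and 2 higher (median -0.48). The 3 lower were Socs3, Pim1 and Osm, each of which is also counted in another list above. Pim1, a survival kinase, fell from 18.1 ± 0.808 to 6.62 ± 0.299 FPKM, whereas Ccnd2, a cyclin, rose from 20.9 ± 0.172 to 32.0 ± 0.574 FPKM (log2 change -1.32 and 0.59). Only 2 of 14 Stat6 targets were tested, 1 of them with a mean under 1 FPKM in 1 group. Il4ra, the shared chain of the IL-4 and IL-13 receptors, fell from 5.39, 5.28 and 5.63 FPKM to 3.55, 2.55 and 2.75 FPKM. Clec10a, a lectin, was higher (named after its values were seen), with 0.611 ± 0.208 and 1.85 ± 0.297 FPKM. Chil3 and Retnla were listed at 0 in all libraries. Other untested targets, Mrc1, Irf4, Mgl2 and Ccl24 (named after their values were seen), were low but higher in every KO library than in any WT library. No untested target was lower without overlap. Mrc1 had 0.00260 ± 0.00450 and 0.135 ± 0.0293 FPKM, and Mgl2 had 0.190 ± 0.0849 and 0.415 ± 0.123 FPKM. Irf4 lay under its floor in every library.

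**Figure D5:**
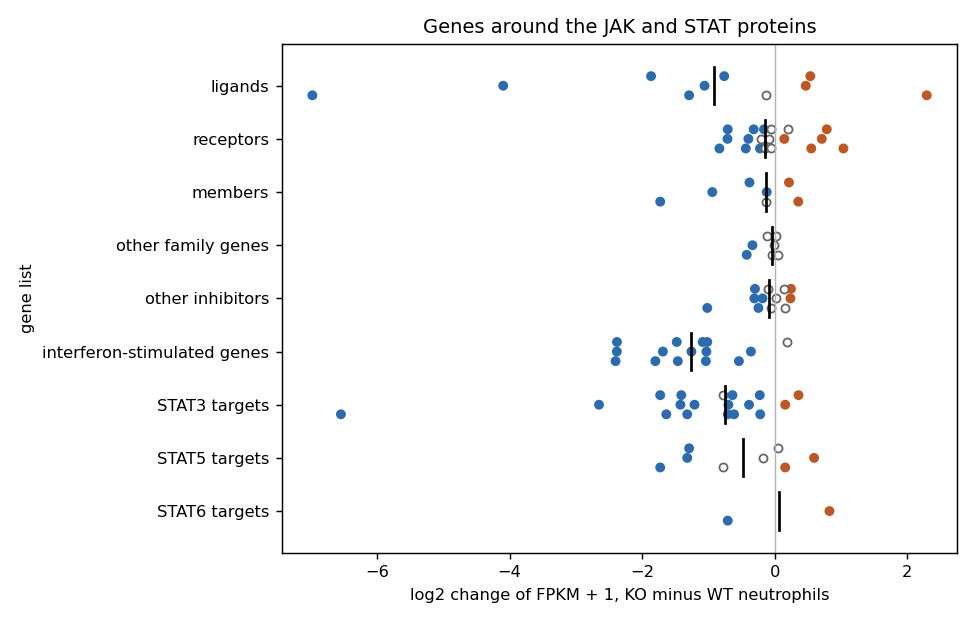
Log2 change of FPKM + 1 (KO minus WT neutrophils) of every tested gene in 9 lists around the JAK and STAT proteins; filled blue points were lower and filled orange points higher with a limma adjusted p under 0.05, open points were not called, the vertical offset has no meaning, and the black bar is the list's median. The medians of the interferon-stimulated genes (-1.26) and of the ligands (-0.91, 6 of 10 of them with a mean under 1 FPKM in 1 group) lie left of 0, while those of the members (-0.14) and receptors (-0.15) lie near it.

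Finally, genes with the profile most like that of Socs3 were sought among the 7383 tested genes that averaged 5 FPKM or more, by the Euclidean distance of log2(FPKM + 1) over the 6 libraries, each gene centred on its own mean. With 2 groups this measure mostly finds genes with a like change. Nearest to Socs3 were Tcim, Rab11fip1, Cd14 and Cybb, at distances of 0.106 to 0.151. Cd14, the co-receptor for lipopolysaccharide, had 474 ± 7.001 and 136 ± 1.66 FPKM, and Cybb, a subunit of the phagocyte NADPH oxidase, had 70.3 ± 1.28 and 19.95 ± 0.653 FPKM. No such list is given for Cish and Socs1, which lay under the floor in the KO group (Cish) or around it in both groups (Socs1), where the pseudocount sets the log2 profile.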

How the data were processed

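RNA-seq was measured in 6 libraries of sorted microglia. The authors deposited FPKM values in 1 table, 1 column per library, and no value column was left out. Per the labels, the processing notes list fastp 0.17.1, HISAT2 2.1.0, DESeq2 1.18.1 and R 3.4.3. The quantification program, genome build and annotation are not given in the sources used here, and the labels and the study's methods name different library kits and sequencers. The authors tested counts with DESeq2, and the deposited table holds FPKM, so limma takes its place.

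Names and positions came from GENCODE M21 (GRCm38), where 99.67% of identifiers were found. limma 3.58.1 (R 4.3.3) was fitted to log2(FPKM + 1) as KO minus WT, with lmFit and eBayes with a variance trend, over the 11395 genes averaging 1 FPKM or more, and Benjamini-Hochberg adjustment over all of them. A fold on this scale understates the change of low genes. Depth was read from the most common low value of genes with 1 annotated transcript, taken as 1 fragment. Only 21.9% to 23.0% of low values were whole fragments within 0.05 (10% by chance), so reads were not recovered. The floor is 3 fragments on the shortest coding transcript.

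The members and lists were chosen with earlier results of these data known. Named were all members and other family genes, Cd177, and from each ligand, receptor, inhibitor and target list the 4 largest changes among called genes with no overlap and at least 5 FPKM in 1 group, together with extreme markers and the nearest profiles of Socs3 (those of Socs1 and Cish, at or under the floor, are left out). Genes named beyond this rule were chosen after their values were seen. A few genes of these families, lists and profiles are not reported here. Alternatives were a pseudocount of 0.1, no filter, a mean of at least 5 FPKM, 4 scalings, no variance trend, array weights, a replicate block and leaving out each library.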

Additional observations from a re-analysis of the deposited data

How the results depend on the processing

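Across 795 values recomputed under an alternative, 772 gave the same direction and call (or a count within 1.5 times), 8 were weaker, 9 moved and 6 reversed. Jak1 was the member that lost its call, at an unchanged log2 change of -0.12 with no filter, no variance trend or the replicate block, and its change ranged from -0.15 to -0.094 with a library left out. The cause was not tested. Calls of Stat3, Stat5a, Stat6, Jak2 and Socs3 held under each alternative that tested them, with adjusted p of at most 0.0285, and Stat2 was called under none. The values that reversed belonged to genes without a call. Stat5b was -0.027 on the common sum, and with a library left out Socs4 ranged from -0.034 to 0.013 and Socs6 from -0.25 to 0.23. At a minimum mean of 5 FPKM, which tests fewer genes, called ligands went from 9 to 4, interferon-stimulated genes from 14 to 8, Stat6 targets from 2 to 0 and other family genes from 2 to 1, and with no filter Stat6 targets went to 4. Replicate numbers did not pair the libraries (r of deviations -0.075, -0.052 and -0.005 for libraries of the same number), and a replicate block gave 4212 calls against 4930. Depth limits Socs1, Cish, Il6, Lcn2 and Cd177.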

Other observations

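Bcl2l1 and Itgam varied widely within a group. Bcl2l1, which encodes a survival protein induced by STAT3 and STAT5, had 22.8, 21.7 and 9.88 FPKM in the WT libraries, against 11.5, 6.02 and 12.2 FPKM in the KO libraries. It was the tested Stat3 target that was not called (log2 change -0.78, limma adjusted p = 0.139), and without WT replicate 3 the called Stat3 targets went from 17 to 18. Itgam, the CD11b integrin chain of myeloid cells, had 8.12, 23.95 and 26.7 FPKM in the WT libraries, against 15.4, 18.1 and 15.2 FPKM in the KO libraries. Its exons share 3450 bases with Gm49368 on the same strand, and the part of this in the spread was not tested.

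Of the 12 shared macrophage markers 5 were higher and 3 lower with KO neutrophils (66.7% called, against 43.3% of all genes tested). Lgals3, a galectin, had 270 ± 6.30 and 444 ± 11.04 FPKM, while Adgre1, which encodes F4/80, had 101 ± 2.67 and 39.3 ± 1.56 FPKM.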
